A study of Mus musculus with 6 samples.

Results

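The receptors, ligands and adaptors by which astrocytes take up dying cells and synapses were examined in astrocytes sorted from hyperglycaemic and control mice, as 10 genes: Megf10, Megf11, Mertk, Axl, Tyro3, Gas6, Pros1, Gulp1, Itgav and Itgb5. They were picked by gene symbol for their known function, and all 10 of the 45777 genes listed in the table were found and were among the 22337 genes tested. No member passed the threshold between STZ and vehicle. Mertk, Gas6 and Itgb5 were abundant in every sample, the 3 STZ samples had less Axl and Itgb5 than each of the vehicle samples, and the levels of the other 8 overlapped between the groups. Over all genes tested, 9.85% lay wholly below in STZ and 8.64% wholly above.

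Every group was made of male Aldh1l1-CreERT2; tdTomato fl/fl mice on a C57BL/6 background, labelled wild type (WT). The Aldh1l1 promoter drives a tamoxifen-dependent Cre recombinase in astrocytes, and recombination turns on the red fluorescent protein tdTomato, so all mice had received tamoxifen for 5 days and the sort took tdTomato-positive cells. One dose of streptozotocin (STZ), which destroys the insulin-producing beta cells of the pancreas, or the citrate buffer that served as vehicle, was injected when the mice were 8 weeks old, and brains were taken 21 days later. Each sample held the pooled cells of 3 mice, with 3 samples per group and 6 in all, so a p-value measures the spread between pools and not between single animals. STZ mice were kept on the basis of their blood glucose, and the injected drug and the hyperglycaemia that follows it cannot be told apart in this design.

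Cells that die, and synapses that are to be removed, expose the lipid phosphatidylserine on their outer surface. Soluble bridging proteins bind it and join it to receptors on the engulfing cell, which then rearranges its actin skeleton and closes a phagosome around the target. Astrocytes are known for synapse removal through MEGF10 and MERTK. The TAM receptors TYRO3, AXL and MERTK are tyrosine kinases that are activated by GAS6 and protein S (Pros1). MEGF11 is the paralogue of MEGF10, GULP1 is an intracellular adaptor of such engulfment receptors, and the integrin subunits alpha v (Itgav) and beta 5 (Itgb5) pair into a receptor for the bridging protein MFG-E8.

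The upstream sequences of 3 members are shown because 2 of them, Axl and Itgb5, are those whose groups did not overlap, and the third, Mertk, is the TAM receptor with the highest level. They are RefSeq sequences of mouse build GRCm38.p6, written 5′ to 3′ on the strand of the gene, and capitals mark the letters GGGCGG on either strand, the core of the GC box bound by Sp1-type factors. Each run ends at the last base before the RefSeq span of the gene, so the Mertk sequence is chr2:128698665-128698914 (plus strand), the Axl sequence is chr7:25788925-25788983 (minus strand), and the Itgb5 sequence is chr16:33829415-33829664 (plus strand).
Mertk: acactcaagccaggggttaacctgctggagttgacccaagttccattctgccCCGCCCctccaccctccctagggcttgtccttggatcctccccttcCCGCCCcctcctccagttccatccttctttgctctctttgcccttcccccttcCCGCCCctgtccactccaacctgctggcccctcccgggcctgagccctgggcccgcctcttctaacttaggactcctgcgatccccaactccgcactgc
Axl: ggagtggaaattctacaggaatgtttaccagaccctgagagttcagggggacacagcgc
Itgb5: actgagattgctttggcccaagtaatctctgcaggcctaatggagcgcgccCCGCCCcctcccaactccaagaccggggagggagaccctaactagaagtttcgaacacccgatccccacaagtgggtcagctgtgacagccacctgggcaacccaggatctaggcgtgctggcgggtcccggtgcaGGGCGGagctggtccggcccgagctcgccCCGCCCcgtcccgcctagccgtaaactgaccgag
In the windows of 250 bases that the promoter table places before a start of each gene, the GC box was found 3 times for Mertk, 3 times for Itgb5 and 1 time for Axl, in a part of the Axl window that lies inside its RefSeq span and is not shown. The windows of Tyro3, Gulp1 and Itgav lie wholly inside the RefSeq spans of these genes, which begin upstream of the start used, and 191 of the 250 bases of the Axl window do so too. The table held windows for 8 of the 10 members, and 7 of these had at least 1 GC box (Itgav had 0), against 32.7% of 32851 windows of the same length. The counts were 5 for Pros1, 4 for Gas6, 3 for Tyro3 and 1 for Gulp1. Other motifs were searched on both strands and found in 0 of the 8 windows. These were the TATA box with the letters TATAAA, which 12.4% of all windows held, and the CAAT box with the letters CCAAT, which 33.8% of all windows held. The E-box with the letters CACGTG, held by 6.02% of all windows, was also in 0 of the 8. So was the cyclic AMP response element with the letters TGACGTCA, held by 1.55% of all windows. The GC content of the 8 windows was 54.8% to 73.2%, beside a median of 52.4% over all windows. A match of letters is a description of the window and does not show binding.

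Total counts were 52529048 to 58749115 per sample, so 3 counts amounted to 0.0511 to 0.0571 CPM (counts scaled to the size of the library), and the lowest count of any member was 380 (Megf11, vehicle replicate 2). These figures cover counting error only. Astrocyte markers were present in every sample, with 262 to 369 TPM of Aldh1l1 (TPM scales counts to transcript length and library), and the summed TPM of 8 astrocyte markers was 8213 to 10044 in vehicle and 7505 to 8359 in STZ, and for 2 of the 8 on this scale, or 3 of the 8 in normalized CPM, the STZ samples lay wholly below the vehicle samples. Markers of other cells were present as well: 6 choroid plexus markers summed to 10446 to 29529 TPM in vehicle and 15777 to 26619 in STZ, 8 microglial markers to 544 to 846 and 548 to 753, 6 border macrophage markers to 27.5 to 52.5 and 22.4 to 50.8, and 8 endothelial markers to 41.9 to 136.0 and 119 to 241. Nearly all of the choroid plexus sum was the 1 transcript Ttr, at 10066 TPM in vehicle replicate 1 and 28667 in vehicle replicate 3. The sums are therefore no measure of the share of cells. Of the endothelial markers, 7 of 8 were higher in STZ at an unadjusted p under 0.05, as were 4 of 7 markers of pericytes and smooth muscle, whose sums were 53.5 to 64.9 and 84.5 to 110.5 TPM. Sums were 22.7 to 33.5 and 25.3 to 38.2 TPM for 5 fibroblast markers, 440 to 1452 and 499 to 1969 for 6 markers of the oligodendrocyte lineage, 47.5 to 89.8 and 67.1 to 97.6 for 6 neuronal markers, and 141 to 447 and 365 to 569 for 5 ependymal markers. Only 1 defining marker was listed at 0, Slc17a7 of neurons, in vehicle replicate 3. Vehicle replicate 1 stood apart, with the highest astrocyte and microglial sums and the lowest choroid plexus and ependymal sums of the 6 samples. Members that rest on it are therefore given without it as well, except in values relative to astrocyte markers. In such bulk samples, fewer cells of a type and less RNA per cell cannot be told apart.

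The members covered a wide range of levels per unit of transcript length. On the TPM scale, as mean ± SD over all 6 samples, Gas6 stood first at 215 ± 34.5, followed by Mertk at 199.5 ± 12.8 and Itgb5 at 176 ± 17.1. Their ranges overlapped, so the order among these 3 is not set by the data. Axl came next at 84.1 ± 13.6, below Itgb5 and above Pros1 in every sample with no overlap of ranges. Pros1 (39.9 ± 4.84), Itgav (33.1 ± 2.95), Gulp1 (25.8 ± 3.59), Megf10 (21.5 ± 1.45) and Tyro3 (18.1 ± 3.27) formed a sequence in which each overlapped its neighbour. Megf11 was lowest at 1.64 ± 0.149 TPM, below all others in every sample. Among all tested genes, Gas6 lay at the 96.8th percentile of mean TPM, Megf10 at the 72.0th and Megf11 at the 32.6th.

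**Figure D1:**
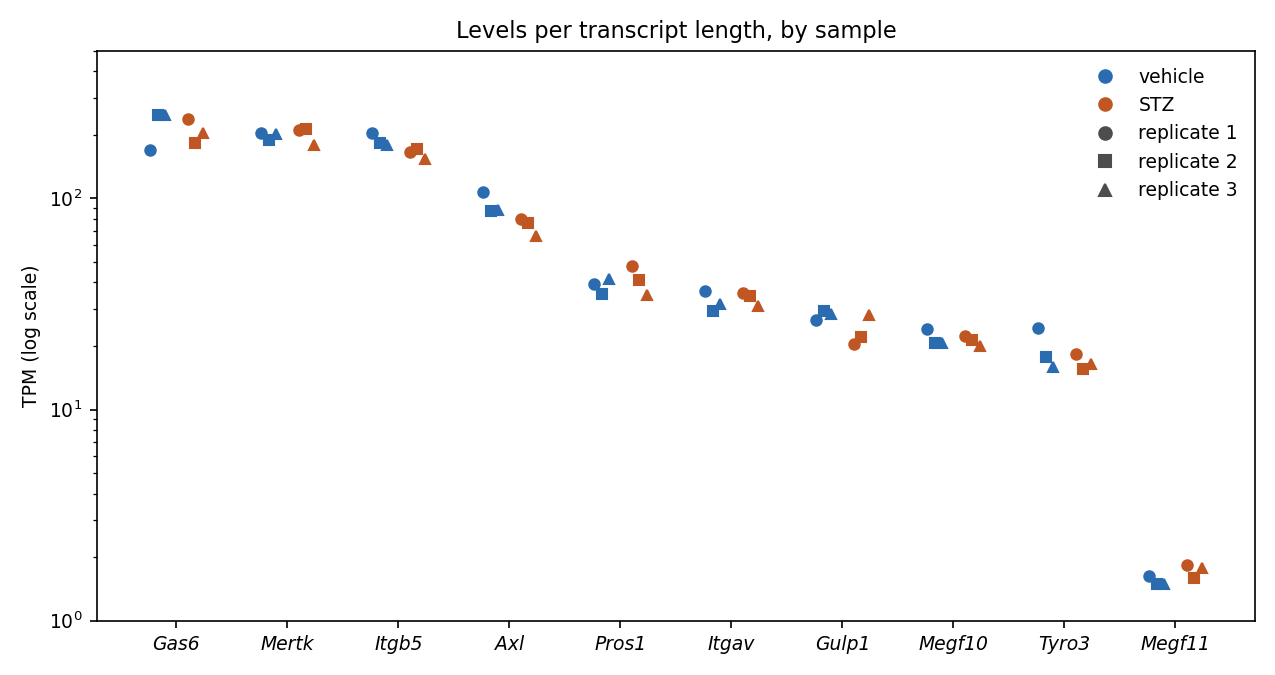
TPM of the 10 members on a log axis, ordered by the mean over 6 samples, with vehicle and STZ samples as separate points. Gas6, Mertk and Itgb5 lay together at the top, with means of 176 to 215 TPM, and Megf11 lay apart at the bottom with a mean of 1.64 TPM.

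For the comparison of STZ with vehicle, a gene was called where the adjusted p was below 0.05 and the fold exceeded 1.5 in edgeR's quasi-likelihood test, with p-values adjusted over all 22337 genes. Only 0.0224% of tested genes (5) were called, and 0 of the 10 members; DESeq2 and limma also called 0 members. At an unadjusted p under 0.05 stood 2 members, Axl and Itgb5, beside 11.3% of all tested genes. Both were lower in STZ, as 5.65% of all tested genes were, and no member was higher at that level, where 5.63% of tested genes were. In 2 of 10 members every STZ sample lay below every vehicle sample, which 9.85% of tested genes did, and in none did every STZ sample lie above, which 8.64% did. The members' median log2 difference (STZ minus vehicle) was -0.08, with 4 positive and 6 negative, beside a median of 0.01 over all genes tested. The sizes of the members' differences had a median of 0.16 on the log2 scale, beside 0.17 over all genes tested and 0.11 over the 10827 genes whose mean CPM lay within the members' range. Of those 10827 genes, 13.9% had an unadjusted p under 0.05, and in 12.8% every STZ sample lay below every vehicle sample.

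**Figure D2:**
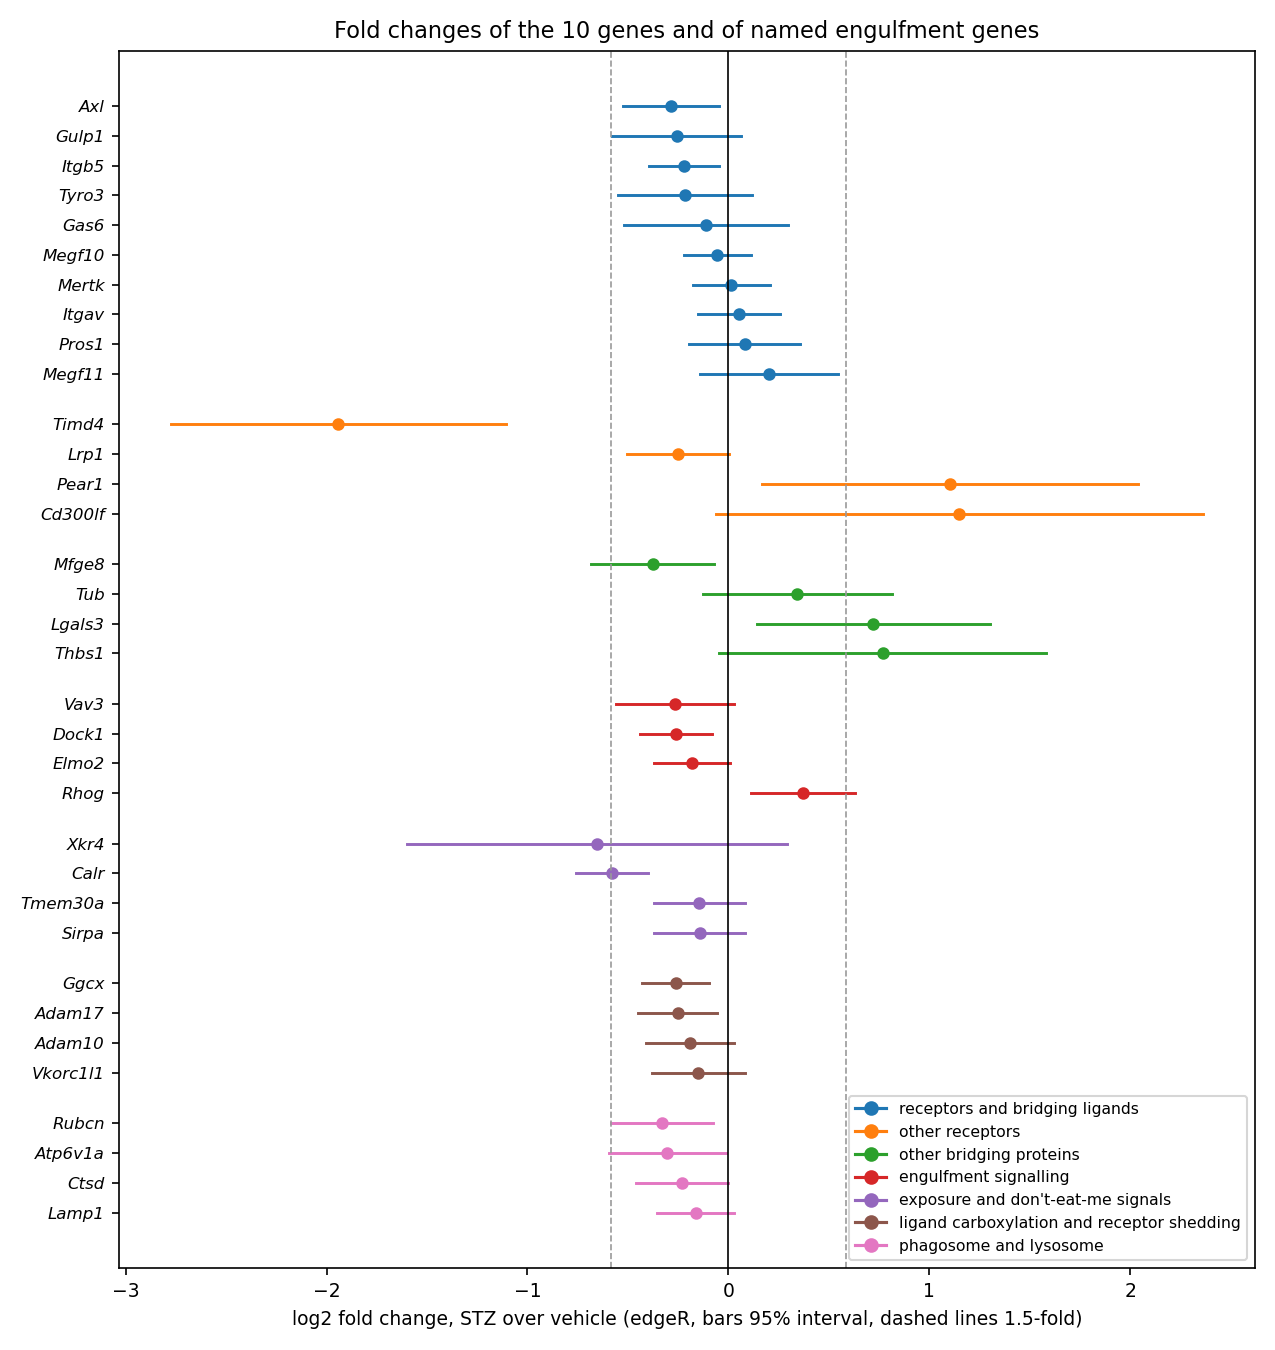
Log2 fold change (STZ over vehicle) of the members and of the named genes of the other engulfment lists, with 95% intervals from edgeR's quasi-likelihood fit. Among the members only the intervals of Axl (-0.52 to -0.05) and Itgb5 (-0.39 to -0.05) did not include 0.

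MEGF10 is the receptor through which astrocytes clear synapses in development and adulthood. Megf10 (NCBI gene 70417, chromosome 18, 57133090 to 57297467) measured 81.1, 72.4 and 73.4 normalized CPM in vehicle replicates 1 to 3 and 75.0, 73.2 and 70.3 in the STZ replicates. The STZ values fell inside or just below the vehicle range, and the means were 75.6 ± 4.75 and 72.8 ± 2.36 (SD, n = 3 each). The log2 difference was -0.05 with an SE of 0.072 (edgeR adjusted p = 0.811), and its 95% interval spanned folds of 0.858 to 1.08. Without vehicle replicate 1 the Megf10 difference was -0.0048. The paralogue Megf11 (NCBI gene 214058, chromosome 9, 64385617 to 64714179) had 7.66, 7.32 and 7.16 normalized CPM in vehicle and 9.25, 7.44 and 8.78 in STZ. Its STZ mean was the higher, but STZ replicate 2 lay within the vehicle range, and the log2 difference of 0.20 (SE 0.148) gave an edgeR adjusted p of 0.629. The adaptor Gulp1 (NCBI gene 70676, chromosome 1, 44551380 to 44796838), which binds the tail of such receptors, had 35.4, 40.8 and 39.8 normalized CPM in vehicle. The STZ samples had 27.4, 30.4 and 39.1, of which replicates 1 and 2 lay below all vehicle samples and replicate 3 did not (log2 difference -0.26, SE 0.137, edgeR adjusted p = 0.521). Without STZ replicate 3 the Gulp1 difference was -0.42, and without STZ replicate 1 it was -0.15. Megf10, Megf11 and Gulp1 overlap other annotated genes, and whether reads were counted by strand is not stated; the partners of Megf11 and Gulp1 had at most 32 counts in any sample.

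The TAM receptors differed among themselves. MERTK is the TAM receptor through which phagocytes, among them astrocytes, take up apoptotic cells and synaptic material. Mertk (NCBI gene 17289, chromosome 2, 128698915 to 128803162) measured 417, 402 and 433 normalized CPM in vehicle and 434, 446 and 385 in STZ. The groups overlapped fully and their means were 417 ± 15.5 and 422 ± 32.0. The log2 difference was 0.02 (SE 0.083, edgeR adjusted p = 0.964), with a 95% interval from 0.884-fold to 1.15-fold.

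AXL is the TAM receptor most linked to inflammation, with GAS6 as its ligand. Axl (NCBI gene 26362, chromosome 7, 25756500 to 25788924) measured 211, 172 and 174 normalized CPM in vehicle and 160, 158 and 140 in STZ. All STZ samples lay below all vehicle samples, by 186 ± 21.6 against 152 ± 11.1 in the means, and vehicle replicate 1 was the highest of the 6. The STZ mean was 0.820-fold of vehicle (95% interval 0.696 to 0.967), a log2 difference of -0.29 (SE 0.102). The unadjusted p was 0.0241, and the adjusted p was 0.383 with edgeR and 0.274 with DESeq2. Without vehicle replicate 1 the log2 difference was -0.19 (unadjusted p = 0.0558) and without STZ replicate 3 it was -0.23 (unadjusted p = 0.0773). Border macrophage and microglial markers, from cells that also make Axl, had overlapping summed levels in the groups. Vehicle replicate 1, the highest for Axl, had the highest sums of both, at 52.5 and 846 TPM. STZ replicate 3, the lowest for Axl, had the lowest border macrophage sum, at 22.4 TPM. Other samples did not follow that order, with border macrophage sums of 50.8 TPM in STZ replicate 1 and 27.5 in vehicle replicate 2. Of the border macrophage markers, 3 of 6 were lower in STZ at an unadjusted p under 0.05. Another of them, F13a1, was highest in STZ replicates 1 and 2, with 13.9, 6.07 and 11.8 TPM in vehicle and 27.7, 17.3 and 8.28 in STZ. In microglia sorted from another mouse line, the study reported higher Axl mRNA after STZ, with or without lipopolysaccharide. That was real-time PCR of a different cell type. The part of border macrophages and microglia in the Axl value here was not tested.

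TYRO3 is the TAM receptor typical of neurons. Tyro3 (NCBI gene 22174, chromosome 2, 119797740 to 119818104) measured 43.6, 32.9 and 30.2 normalized CPM in vehicle and 32.9, 28.4 and 30.5 in STZ. Vehicle replicate 1 stood above the other 5 samples, which lay close together. The log2 difference of -0.22 (SE 0.143, edgeR adjusted p = 0.595) was -0.05 without that sample.

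Within the TAM family the Mertk and Axl shares of summed TPM did not overlap between the groups, and the Tyro3 shares did. The shares themselves were not tested. Mertk made up 60.8%, 64.4% and 65.9% of the family in vehicle and 68.3%, 69.7% and 68.4% in STZ. Axl made up 31.9%, 29.6% and 28.9% in vehicle and 25.8%, 25.2% and 25.3% in STZ. Tyro3 stayed between 5.11% and 7.29% in all samples. The family's sum was 311 ± 20.9 TPM in vehicle and 292 ± 25.8 in STZ. The ratio of Axl to Mertk was 0.525, 0.460 and 0.438 in vehicle and 0.378, 0.361 and 0.370 in STZ, with no overlap. Its log2 difference was -0.36 on the TPM scale and -0.29 on the CPM scale, and it was -0.28 without vehicle replicate 1. The exact permutation test of 3 against 3 samples (two-sided) gave p = 0.1, the smallest it can give, and 0.15 after adjustment over the 3 ratios examined.

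**Figure D3:**
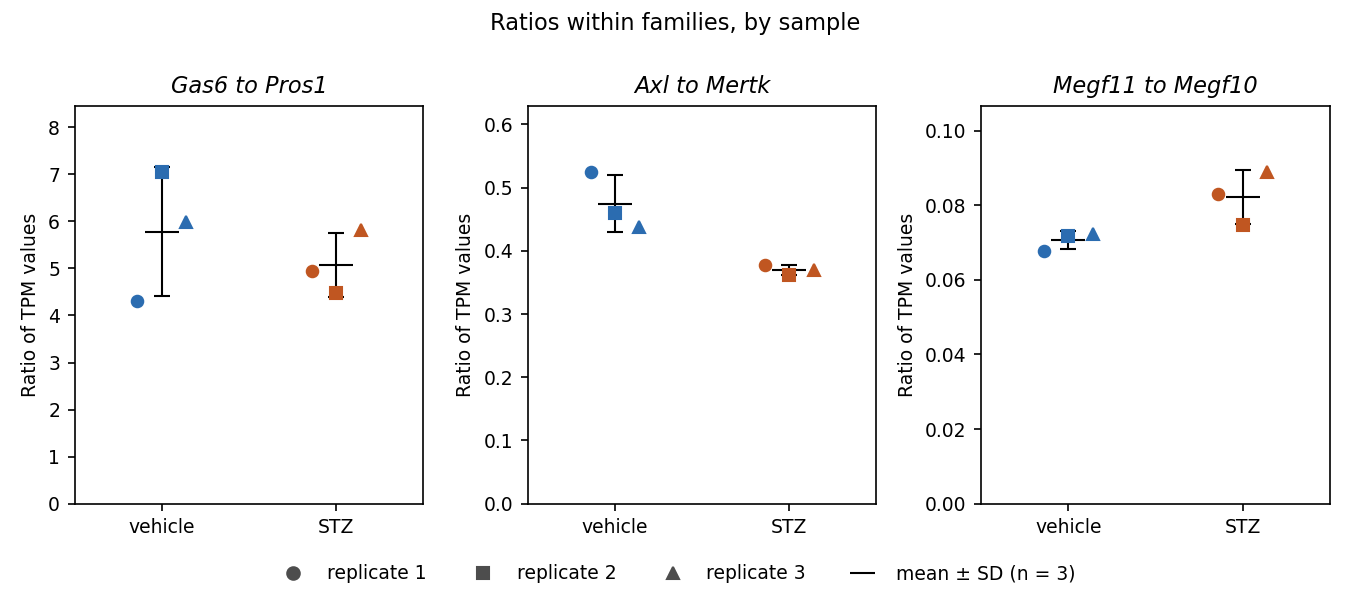
Ratios of TPM values within families for each sample, with the mean ± SD of 3 samples per group. The Axl to Mertk ratio of the STZ samples (0.361 to 0.378) lay below that of the vehicle samples (0.438 to 0.525), the Megf11 to Megf10 ratio lay above, and the Gas6 to Pros1 ratio overlapped.

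The ratio of Megf11 to Megf10 was 0.0678, 0.0716 and 0.0723 in vehicle and 0.0831, 0.0746 and 0.0889 in STZ. The groups did not overlap, and the log2 difference was 0.22 (exact permutation p = 0.1, again the smallest possible, and 0.15 adjusted over 3 ratios). The nearest samples were STZ replicate 2 and vehicle replicate 3. Without vehicle replicate 1 the log2 difference was 0.19 (exact permutation p = 0.2), and without STZ replicate 3 it was 0.16 (exact permutation p = 0.1). Megf10 made up 91.8% to 93.6% of the pair's TPM in all samples.

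GAS6 and protein S are vitamin K-dependent proteins that bridge phosphatidylserine to the TAM receptors. Gas6 (NCBI gene 14456, chromosome 8, 13465374 to 13494535) measured 197, 299 and 305 normalized CPM in vehicle and 278, 217 and 246 in STZ. The lowest and both highest values were vehicle samples, so the spread within the vehicle group exceeded the difference between the means (267 ± 60.5 and 247 ± 30.5). The log2 difference was -0.11 (SE 0.175, edgeR adjusted p = 0.843). Without vehicle replicate 1 it was -0.29 (unadjusted p = 0.0301), and without vehicle replicate 3 it was -0.02. Vehicle replicate 1 and STZ replicate 2, the lowest for Gas6, also had the lowest summed choroid plexus markers, at 10446 and 15777 TPM, and vehicle replicates 2 and 3, the highest for Gas6, had the highest, at 28294 and 29529 TPM; the part of those cells in the Gas6 values was not tested. The gene Tmem255b, which overlaps Gas6, had 96 to 280 counts, beside 10557 to 17455 for Gas6.

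Pros1 (NCBI gene 19128, chromosome 16, 62854307 to 62929346) measured 57.8, 53.8 and 64.9 normalized CPM in vehicle and 71.3, 61.6 and 53.8 in STZ. STZ samples held both the highest value and one at the bottom of the range, and the log2 difference was 0.08 (SE 0.118, edgeR adjusted p = 0.830). Gas6 made up 81.2% to 87.6% of the TPM of both ligands together. The Gas6 to Pros1 ratio was 4.32, 7.05 and 5.98 in vehicle and 4.95, 4.47 and 5.82 in STZ, which overlapped (log2 difference -0.17, exact permutation p = 0.6, adjusted over 3 ratios 0.6). Without vehicle replicate 1 that difference was -0.36 and without vehicle replicate 2 it was -0.01.

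**Figure D4:**
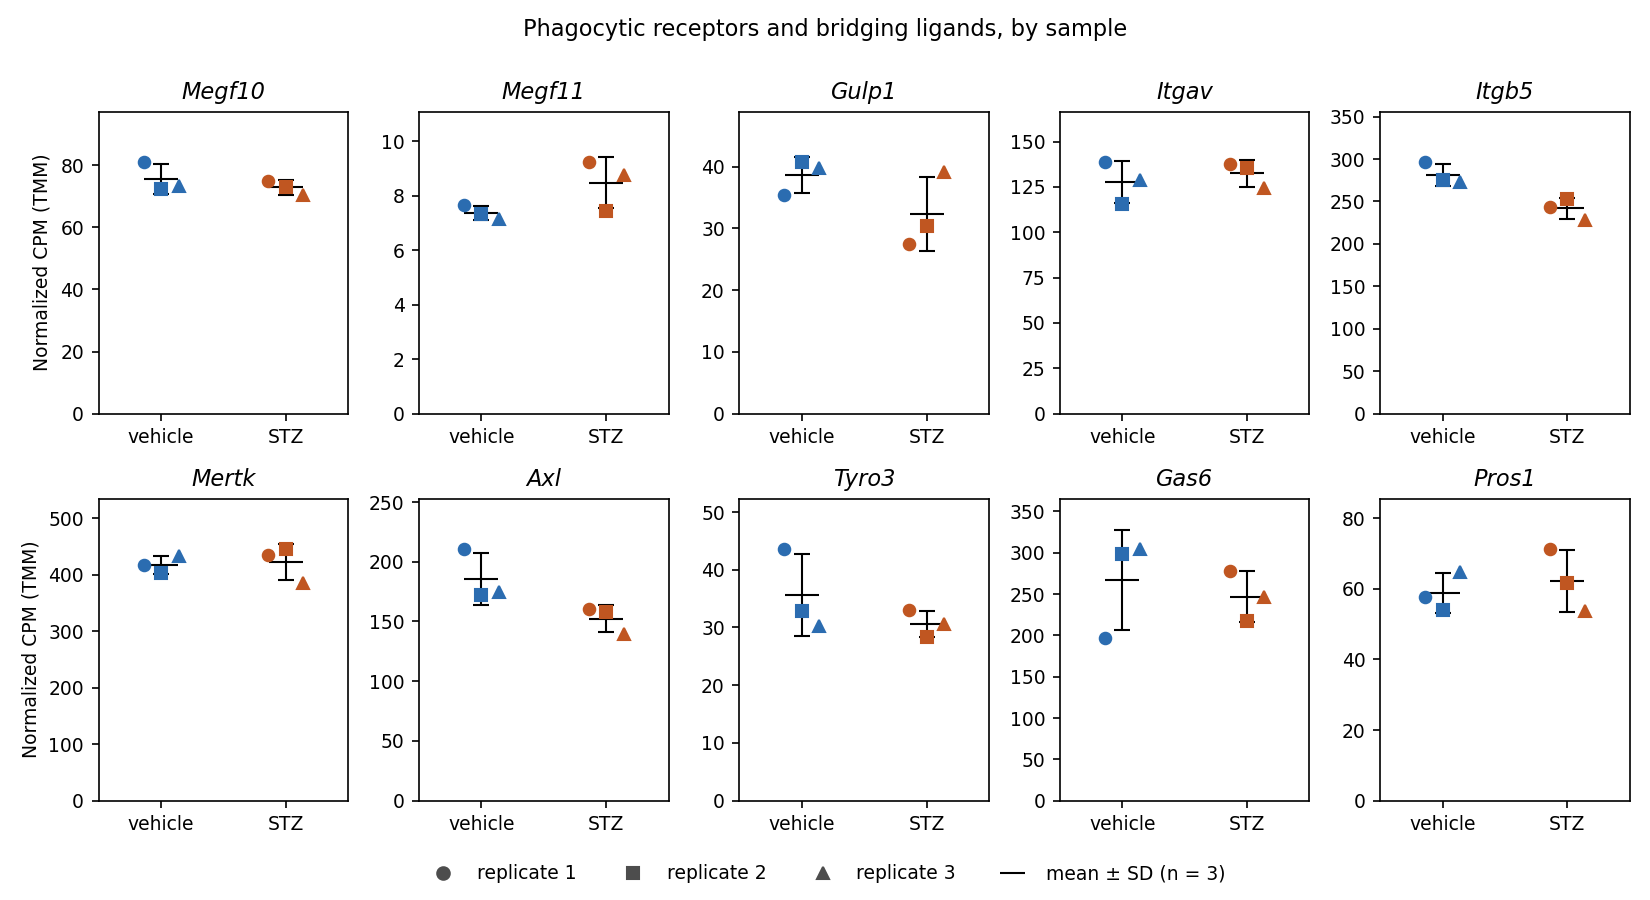
Normalized CPM of each of the 10 members in each sample, one panel per gene, with the mean ± SD of 3 samples per group and axes from 0. Axl (140 to 160 in STZ, 172 to 211 in vehicle) and Itgb5 are the panels in which the groups do not overlap.

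The integrin subunits differed in level and in their comparison. Itgav (NCBI gene 16410, chromosome 2, 83722303 to 83806917), the alpha subunit shared by several integrins, measured 139, 115 and 129 normalized CPM in vehicle and 138, 136 and 124 in STZ. The samples were mixed between the groups, with a log2 difference of 0.05 (SE 0.088, edgeR adjusted p = 0.849). Itgav also overlaps another annotated gene, Dnmt3l-ps1, for which no counts were at hand. Itgb5 (NCBI gene 16419, chromosome 16, 33829665 to 33949338), which encodes the beta subunit, measured 297, 275 and 273 in vehicle and 244, 253 and 228 in STZ. Every STZ sample was below every vehicle sample, with means of 282 ± 12.96 and 242 ± 12.7 normalized CPM. The STZ mean was 0.858-fold of vehicle (95% interval 0.761 to 0.968), a log2 difference of -0.22 (SE 0.074). The unadjusted p was 0.0192, and the adjusted p was 0.357 with edgeR and 0.292 with DESeq2. Without vehicle replicate 1 the log2 difference was -0.19, and leaving out STZ replicate 3 gave -0.18 (unadjusted p = 0.0585).

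Because the summed astrocyte markers also had a lower mean in STZ, the members were set against them in a comparison added after the data had been seen. Per 1000 TPM of the 8 astrocyte markers, Itgb5 had 20.3, 22.2 and 20.8 TPM in vehicle and 20.9, 20.5 and 20.4 in STZ, and the groups overlapped. Axl had 10.6, 10.6 and 10.3 in vehicle and 10.1, 9.15 and 8.85 in STZ, still without overlap (log2 difference -0.17). On this scale all STZ samples lay above all vehicle samples for Mertk (log2 difference 0.19), Megf10 (0.13), Megf11 (0.35) and Itgav (0.23), of which Megf10 had a difference of -0.05 on the CPM scale. On the same scale 21.1% of all tested genes lay wholly above in STZ and 2.1% wholly below. The division uses 1 factor per sample and raises the log2 difference of every gene by 0.17, so a value near 0 in TPM turns positive by construction. That factor leans on vehicle replicate 1, whose marker sum was 10044 TPM, against 8213 and 8580 in vehicle replicates 2 and 3. The scale was not recomputed without it. Slc1a3 and Gja1 made up most of the sum, at 3515 and 4313 TPM in vehicle replicate 1. Gas6 had a log2 difference of 0.09, against -0.11 in CPM, with overlapping groups, and Tyro3, Pros1 and Gulp1 overlapped too.

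**Figure D5:**
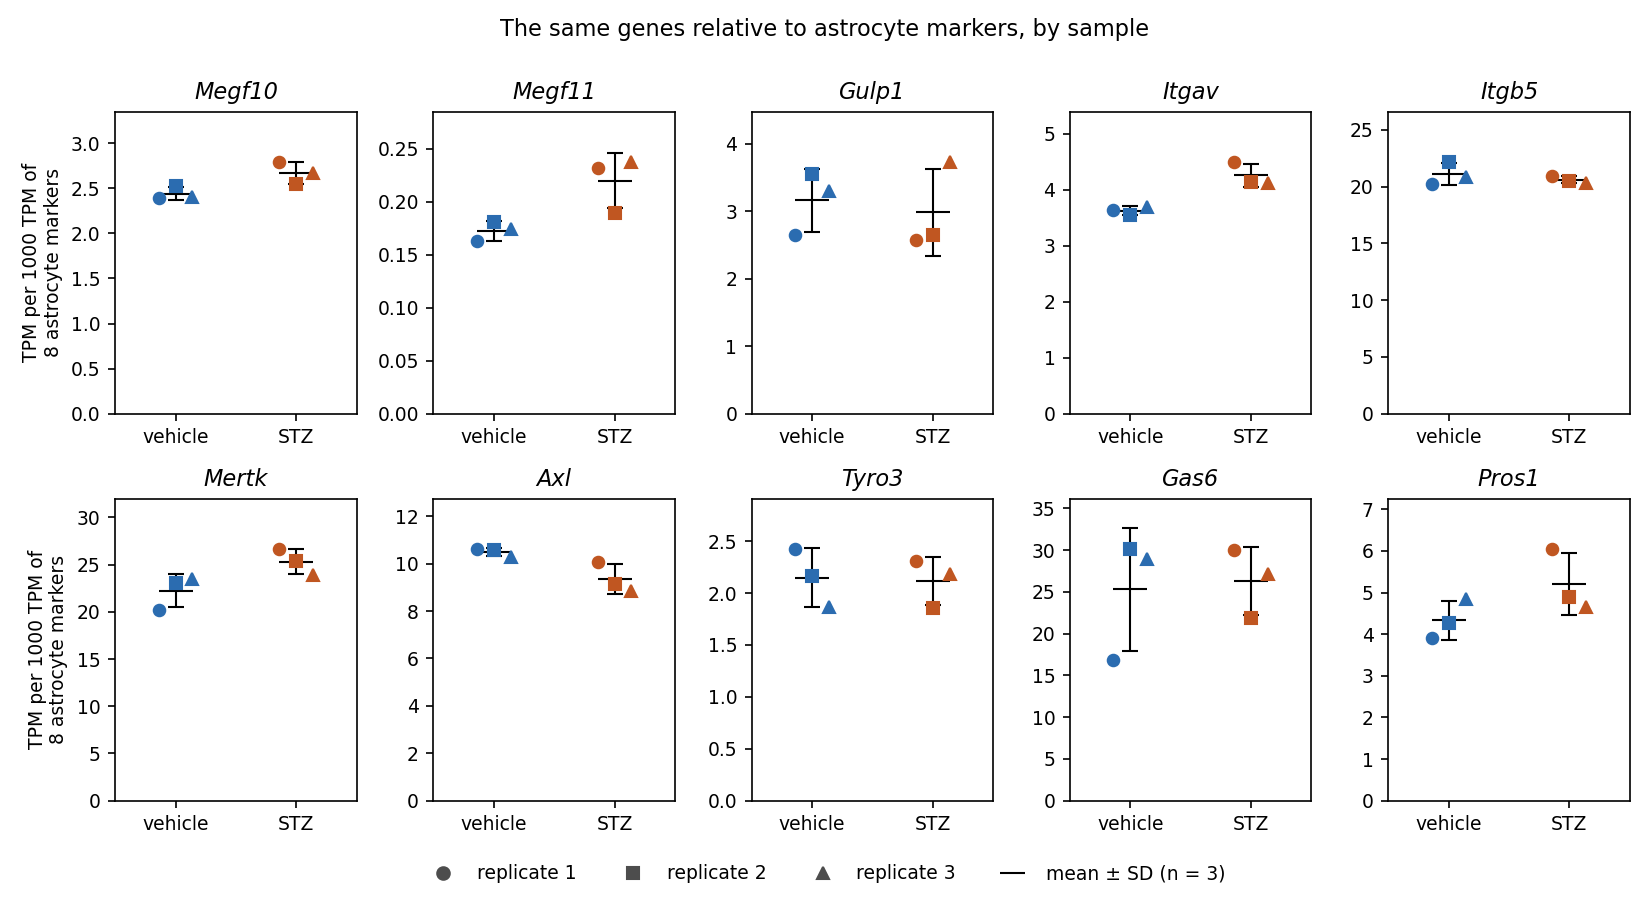
TPM of each member per 1000 TPM of 8 astrocyte markers in each sample, with the mean ± SD of 3 samples per group and axes from 0. Axl lies lower in STZ (8.85 to 10.1) than in vehicle (10.3 to 10.6), Mertk lies higher (23.9 to 26.7 against 20.2 to 23.5), and Itgb5 overlaps.

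The other genes of the pathway were followed in 6 lists drawn up by function, with 67 genes of which 65 were tested (Havcr1 and Tulp1 were not). None was called by edgeR, 3 were higher and 9 lower at an unadjusted p under 0.05, and 1 was called with DESeq2. In 16 of the 65 every STZ sample lay below and in 2 every STZ sample lay above, with a median log2 difference of -0.05, beside 9.85% and 8.64% of all genes tested. Among genes at the level of the members, 12.8% lay wholly below. By role, the count at an unadjusted p under 0.05 was 2 of 14 other receptors, 2 of 8 other bridging proteins, 2 of 14 signalling genes, 1 of 9 genes of exposure and don't-eat-me signals, 2 of 5 genes of ligand carboxylation and receptor shedding, and 3 of 15 phagosome and lysosome genes. Over all genes tested that share was 11.3%, and it was 13.9% over the genes at the level of the members. Up to 4 genes with the smallest p in each list were named.

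MFG-E8, which links phosphatidylserine to the alpha v integrins, is a bridging protein of astrocytes. Mfge8 measured 6704, 6165 and 6361 normalized CPM in vehicle and 4227, 5365 and 5213 in STZ. All STZ samples were below all vehicle samples (log2 difference -0.38, SE 0.131, unadjusted p = 0.0220, edgeR adjusted p = 0.371). Lgals3, the lectin galectin-3 that can bridge to MERTK, had 33.9 ± 10.4 normalized CPM in vehicle and 55.9 ± 12.7 in STZ with overlapping groups (log2 difference 0.72, edgeR unadjusted p = 0.0211, edgeR adjusted p = 0.368). Thbs1, thrombospondin 1, and Tub had log2 differences of 0.77 and 0.34 (edgeR adjusted p = 0.465 and 0.551). For Tub every STZ sample lay above every vehicle sample, and for Thbs1 the groups overlapped.

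Calreticulin (Calr), a chaperone of the endoplasmic reticulum that acts as an eat-me signal when exposed at the surface, had the smallest p of all 65 genes. It measured 702, 698 and 685 normalized CPM in vehicle and 452, 497 and 446 in STZ. The groups were far apart for their spread, at 695 ± 8.94 and 465 ± 27.8, with an STZ mean of 0.669-fold (log2 difference -0.58, SE 0.077). The adjusted p was 0.117 with edgeR and 7.22e-07 with DESeq2, where the log2 difference of -0.58 fell just short of the 1.5-fold threshold. In the same list Xkr4 had a log2 difference of -0.65 at under 1.01 normalized CPM, and Sirpa (-0.14) and Tmem30a (-0.14) overlapped between the groups. Without vehicle replicate 1 these were -0.41, -0.07 and -0.06.

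Among the other receptors, Timd4, a phosphatidylserine receptor of resident macrophages, was the gene that DESeq2 called. It had only 35 to 59 counts in vehicle and 9 to 19 in STZ, or 0.912 ± 0.217 and 0.235 ± 0.079 normalized CPM (log2 difference -1.94, SE 0.357, adjusted p = 0.189 with edgeR and 0.0164 with DESeq2). It lay beside border macrophage markers of which 3 of 6 were lower in STZ at an unadjusted p under 0.05, while F13a1 was highest in STZ replicates 1 and 2. The part of these cells in the Timd4 value was not tested. Lrp1, a receptor for calreticulin-marked and other cargo, was lower in all STZ samples in normalized CPM (386 ± 16.2 and 324 ± 45.7, edgeR adjusted p = 0.450). Its log2 difference of -0.25 was -0.16 without STZ replicate 3. In TPM the Lrp1 groups overlapped, with 55.4 in STZ replicate 1 and 53.7 in vehicle replicate 3. Pear1, a relative of Megf10 that is also made by endothelial cells, had 1.75, 1.27 and 2.81 normalized CPM in vehicle and 6.20, 3.68 and 2.67 in STZ (log2 difference 1.10, edgeR adjusted p = 0.391, and 0.70 without STZ replicate 1). The same 3 STZ samples in that order had 241, 188 and 119 TPM of summed endothelial markers, and the vehicle samples 41.9, 52.7 and 136.0; their part in the Pear1 values was not tested. Cd300lf, a myeloid receptor, had a log2 difference of 1.15 with overlapping groups (edgeR adjusted p = 0.465), and 1.85 without vehicle replicate 3.

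Inside the cell, engulfment signals run from the adaptor proteins to Rac through the DOCK1 and ELMO exchange factor and the small GTPase RhoG. Dock1 had 83.7, 73.5 and 71.9 normalized CPM in vehicle and 63.1, 65.2 and 63.0 in STZ, and Rhog had 59.9, 45.0 and 58.0 against 70.5, 71.2 and 69.1. Both separated the groups, in opposite directions, with log2 differences of -0.26 (SE 0.078) and 0.37 (SE 0.111) and an edgeR adjusted p of 0.322 for each. Elmo2 (-0.18) and Vav3 (-0.27) were also lower without overlap in normalized CPM, with edgeR adjusted p = 0.461 and 0.479. On the TPM scale the groups overlapped for both. Elmo2 had 185 TPM in STZ replicate 3 and 171 in vehicle replicate 3, and Vav3 had 17.2 in STZ replicate 2 and 16.2 in vehicle replicate 2. Leaving out 1 sample moved Rhog to 0.24 (vehicle replicate 2) and Vav3 to -0.14 (STZ replicate 1).

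GAS6 and protein S need gamma-carboxylation to bind phosphatidylserine, which the enzyme GGCX performs, and the metalloproteases ADAM10 and ADAM17 cut AXL and MERTK from the cell surface. Ggcx had 60.9, 55.6 and 60.7 normalized CPM in vehicle and 48.0, 51.5 and 48.3 in STZ. Adam17 had 56.0, 49.3 and 54.5 in vehicle and 45.0, 41.5 and 47.7 in STZ. Both were lower in every STZ sample, with log2 differences of -0.26 (SE 0.072) and -0.25 (SE 0.084) and edgeR adjusted p = 0.301 and 0.356. Adam10 also separated the groups (log2 difference -0.19, edgeR adjusted p = 0.492), and Vkorc1l1, which recycles vitamin K, did not (-0.15, edgeR adjusted p = 0.597). Without vehicle replicate 1 both were at -0.10.

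Of the 15 phagosome and lysosome genes 13 had a negative difference, and in 5 every STZ sample lay below, beside 10737 of 22337 tested genes with a negative difference and 9.85% wholly below. The share wholly below was 12.8% among genes at the level of the members. Rubcn, which encodes rubicon of LC3-associated phagocytosis, had 22.8, 25.1 and 23.5 normalized CPM in vehicle and 21.2, 16.8 and 18.9 in STZ (log2 difference -0.33, SE 0.109, edgeR adjusted p = 0.355). Atp6v1a, a subunit of the proton pump that acidifies the lysosome, had a log2 difference of -0.30 with overlapping groups (edgeR adjusted p = 0.428), and -0.20 without vehicle replicate 2. Ctsd, the protease cathepsin D, and Lamp1, a protein of the lysosomal membrane, were lower in all STZ samples by log2 differences of -0.23 and -0.16 (edgeR adjusted p = 0.441 and 0.501).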

How the data were processed

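RNA of tdTomato-positive cells from 3 vehicle and 3 STZ pools was sequenced; the sample labels name a SMART-Seq kit, and the methods name TruSeq as well. The submitters' processing notes list Trimmomatic 0.38, HISAT2 2.1.0, Bowtie2, SAMtools 1.9, StringTie 2.1.3b and the build mm10; the annotation release and strand setting are not given in the sources used here. The deposited counts are whole, unnormalized reads per gene. The authors also gave FPKM and TPM values, of which TPM served levels and ratios. Groups and replicate numbers came from the labels.

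Genes without a count of 0 in any sample (22337 of 45777) entered the test of edgeR 4.0.16 (R 4.3.3, TMM, quasi-likelihood, group only, two-sided, Benjamini-Hochberg over all genes; threshold adjusted p under 0.05 and fold over 1.5). SE is the log2 difference divided by the root of F, and intervals are 95%. The study's DESeq2 (1.42.0), limma 3.58.1 on log2(TPM + 1) and log2(TPM + 0.1), other filters and scalings, robust fitting, a replicate block and each sample left out were alternatives. Ratios used exact permutation tests. Scripts were tested on simulated data. The 10 members and all lists were chosen with earlier results of these data known. Named genes were all members, and from each other list at most 4 with the smallest p. Positions are RefSeq GRCm38 spans, matched by gene number for all 10.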

Additional observations from a re-analysis of the deposited data

How the results depend on the processing

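None of the 10 members was called under any alternative, with the lowest adjusted p among them from 0.274 (DESeq2) to 0.632 (without STZ replicate 2). The count of members at an unadjusted p under 0.05 was 2 in every fit except without STZ replicate 3, where it was 1 (Gulp1), and without vehicle replicate 1 the 2 were Gas6 and Itgb5. Over all genes the count called was 5, against 234 with DESeq2, 10 with robust fitting, 10 at an adjusted p under 0.1 with no fold threshold, 0 with limma on log2(TPM + 1) and 0 on log2(TPM + 0.1), and 0 to 1 when one sample was left out. The study, which used DESeq2 and the same thresholds, also reported 234 genes. The cause of the difference between the methods was not tested. Of the other engulfment genes DESeq2 called 1 (Timd4), against 0. With the replicate number as a block 0 genes were called and 1793 had an unadjusted p under 0.05, against 2519; Axl and Itgb5 then had an adjusted p of 0.601 and 0.619. Same-numbered samples had correlations of -0.10, -0.16 and -0.18 in their deviations from the group means. These values gave no sign of pairing by number, but 3 samples per group are too few to exclude it. Differences near 0 changed sign: with one sample left out, Mertk ranged from -0.0256 to 0.0761, Pros1 from -0.0273 (without STZ replicate 1) to 0.176 and Itgav from -0.0280 (without vehicle replicate 2) to 0.114. Relative to astrocyte markers, a scale chosen after seeing the data that adds 0.17 to every gene, the log2 difference was 0.128 for Megf10 and 0.0907 for Gas6. Arms left with 2 samples shared the spread of all samples in the fit. Counts of the members, from 380 up, left counting error of at most 5.13%.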
